A study of Mus musculus with 2 samples.

Results

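The nuclear subunits of respiratory complexes II to V were chosen by gene name from the transcript tables of both libraries. They are the 4 succinate dehydrogenase genes Sdha to Sdhd, Cyc1, and every gene whose name starts with Uqcr, with Cox4 to Cox8 or with Atp5. Names holding -ps, which mark pseudogenes, and the muscle and brown fat isoforms Cox6a2, Cox7a1 and Cox8b were left out by the same rule. This gave 44 genes of the 16926 annotated genes with a read in either library: 4 of complex II, 9 of complex III, 14 of complex IV and 17 of complex V. Of these, 43 were read in both libraries, and Cox6c2 had a single read in replicate 1.

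The study sequenced long complementary DNA reads from the adrenal gland of female B6CASTF1/J mice, 36 days old. B6CASTF1/J is the F1 hybrid of the strains C57BL/6J and CAST/EiJ. The labels name no treatment and no engineered allele. There were 2 libraries of 1 group, carrying the labels' numbers 1 and 2 as biological replicates, so the design holds no comparison of conditions. The labels are divided on whether both libraries came from the same animal, so differences between these libraries may be technical. SDs give the spread between the 2 libraries. P-values weigh a difference between them against counting error alone and hold no estimate of that spread.

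The inner mitochondrial membrane holds the respiratory chain. Complex II takes electrons from succinate, complex III passes them from ubiquinol to cytochrome c, and complex IV passes them from cytochrome c to oxygen. Complexes III and IV pump protons, and complex V, the ATP synthase, uses the returning protons to make ATP. All subunits of complex II are nuclear, whereas complexes III, IV and V join nuclear subunits to a few proteins made from the mitochondrial genome. In the adrenal cortex mitochondria also house early steps of steroid synthesis, which draw electrons from a separate NADPH-fed chain.

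Replicate 1 held 1144572 reads of annotated genes and replicate 2 held 414588, so 1 read weighs more in replicate 2. Levels are given in CPM, the reads of a gene for every 1000000 reads of annotated genes in the library. Each long read was counted once whatever its length, so CPM was not divided by length. Whether each read stands for a separate molecule was not tested. The adrenal cortex markers summed to 67431 and 84576 CPM and all 9 of them were read in both libraries, with 2 called higher and 4 lower in replicate 2. All 8 markers of the medulla were also read in both (10628 and 7448 CPM), with 1 called higher and 3 lower. The 8 brown fat markers, all read in both, summed to 4532 and 7506 CPM. Of these, Kcnk3 (1839 and 3169 CPM), Cidea, Cox7a1 and Cox8b were called higher in replicate 2. Ucp1 had 787 and 671 CPM and Elovl3 80.4 and 60.3 CPM, and neither was called. Kcnk3 had the highest level of the list, and whether its reads came from brown fat was not tested. The 8 white fat markers, also all read in both, summed to 6378 and 8843 CPM, with 3 called higher and none lower. The 10 skeletal muscle markers summed to 1027 and 21.7 CPM, with Myh4 at 0 in replicate 1 and 6 of them, Atp2a1, Tnnc2 and Tnni2 included, at 0 in replicate 2. Of the 5 kidney markers, 4 were at 0 in replicate 1 and all 5 in replicate 2. In bulk tissue, fewer cells of a type and less RNA per cell cannot be told apart.

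The members held 39543 reads, or 3.45% of annotated reads, in replicate 1 and 17484 reads, or 4.22%, in replicate 2. By mean CPM, summed levels were lowest for complex II and highest for complex V. Complex II reached 2696 CPM in replicate 1 and 2129.8 in replicate 2, a mean of 2413 ± 400.5 (SD, n = 2). Complex III reached 7466 and 9602 CPM, a mean of 8534 ± 1511 (SD, n = 2). The summed level of complex IV was 10787 and 15331 CPM, a mean of 13059 ± 3213 (SD, n = 2). Complex V stood at 13599 and 15109 CPM, a mean of 14354 ± 1068 (SD, n = 2). In both libraries complex II was below complex III and both were below complexes IV and V. Complexes IV and V differed by less than their spread and changed places between the libraries. The number of genes differs between complexes, and the median member of each stood at 603 CPM in complex II, 730 in complex III and 691 in complex V. Among the 11 complex IV members with at least 10 reads the median was 1055 CPM.

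Each gene with at least 10 reads in total was tested for a difference between the libraries by a two-sided exact binomial test on library sizes scaled with TMM, with Benjamini-Hochberg adjustment over 9882 genes and a threshold of 0.05. Of the 41 members tested, 27 were called, 24 higher and 3 lower in replicate 2, and 14 were not called. Of all genes tested 14% were called, 7.86% higher and 6.13% lower. The share called depends on the minimum of reads. Among the 4965 genes with at least 50 reads in total, 26% were called, beside 27 of the 40 members tested there. Over the members the median log2 ratio of replicate 2 to replicate 1 was 0.51, and over all genes tested it was -0.007. Ratios of replicate 2 to replicate 1 use the TMM-scaled library sizes, whereas CPM values are not scaled with TMM. A ratio can therefore differ from the quotient of the CPM beside it, for Sdhb and Uqcrc1 even in direction. This test knows only counting error, so a call says that 2 libraries differ and not that 2 conditions do. The marker sums of adrenal cortex, medulla, brown fat, white fat and skeletal muscle differed between the same libraries, and their part in the members' differences was not tested.

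**Figure D1:**
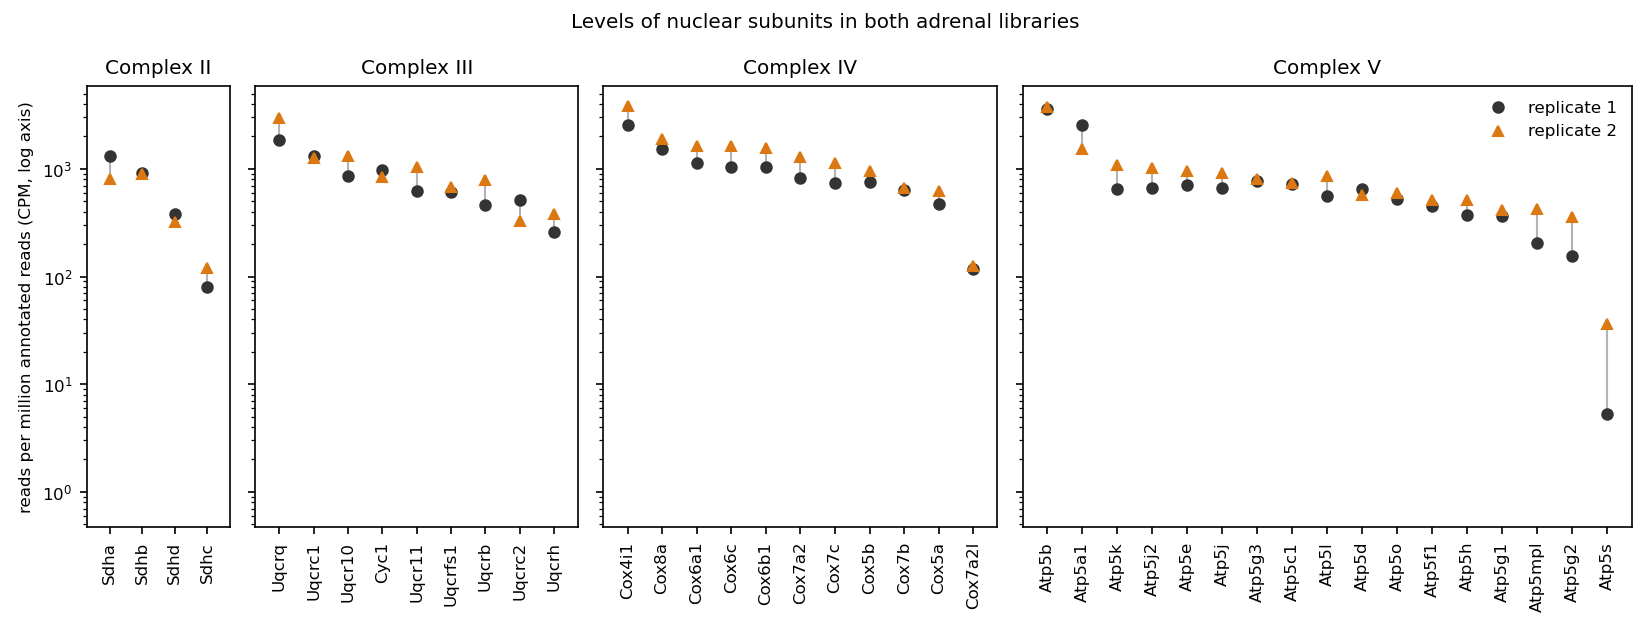
Level of each member with at least 10 reads in CPM (log axis) in replicate 1 (circles) and replicate 2 (triangles), 1 panel for each complex, with no error bars. Sdha, Uqcrc2 and Atp5a1, which were called lower, lie lower in replicate 2. So do Sdhb, Sdhd, Cyc1, Uqcrc1 and Atp5d, which were not called. Most members of complexes III, IV and V lie higher.

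In complex II, 1 member was called lower in replicate 2 and none higher. Sdha, the flavoprotein that oxidises succinate, was read at 1324 CPM in replicate 1 and 801 CPM in replicate 2. That is 0.636-fold in replicate 2 (95% interval from counting error, 0.563 to 0.716), called lower by the exact binomial test (adjusted p = 4.17e-13). Sdhb, the iron-sulfur subunit, stood at 912 and 888 CPM, with a TMM-scaled ratio of 1.02 (0.906 to 1.15; exact binomial adjusted p = 0.926). The membrane anchors Sdhd and Sdhc were lower in level than the catalytic subunits. Sdhd had 380.1 and 321 CPM, a ratio of 0.887 (0.725 to 1.08; exact binomial adjusted p = 0.54). Sdhc had 80.4 and 121 CPM, a ratio of 1.58 (1.09 to 2.25; exact binomial adjusted p = 0.0744). Sdhc was called higher without Genomic reads (log2 ratio 0.73, exact binomial adjusted p = 0.033) and with a minimum of 50 reads (exact binomial adjusted p = 0.0475). The mean of Sdha was 10.6-fold that of Sdhc.

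In complex III, the small subunits were higher in replicate 2 and the large core subunits were level or lower. Uqcrq, a small subunit that contacts cytochrome b, led the complex with 1836 CPM in replicate 1 and 2949.9 in replicate 2, a ratio of 1.69 (1.57 to 1.81; exact binomial adjusted p = 5.03e-43). Uqcr10 had 866 and 1329 CPM, a ratio of 1.61 (exact binomial adjusted p = 1.75e-16). Uqcr11 had 618 and 1035 CPM, a ratio of 1.76 (exact binomial adjusted p = 3.14e-17). Both are among the smallest proteins of the complex. Uqcrb, which binds near the ubiquinone site, had 466 and 786 CPM, a ratio of 1.77 (exact binomial adjusted p = 1.83e-13). Uqcrh, the acidic hinge protein at the cytochrome c contact, had 258 and 384 CPM, a ratio of 1.56 (1.28 to 1.9; exact binomial adjusted p = 0.000196). These 5 were the members of complex III called higher.

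The subunits that carry the redox centres of complex III, and its core proteins, did not follow the small subunits. Cyc1, the cytochrome c1 subunit, had 985 and 842 CPM (ratio 0.898, 0.794 to 1.01; exact binomial adjusted p = 0.277). Uqcrfs1, the Rieske iron-sulfur protein, had 606 and 685 CPM (ratio 1.19, 1.03 to 1.36; exact binomial adjusted p = 0.0893). Of the core proteins, Uqcrc1 stood at 1321 and 1264 CPM (TMM-scaled ratio 1.01, 0.909 to 1.11; exact binomial adjusted p = 1). Uqcrc2 stood at 511 and 328 CPM and was called lower, at 0.674-fold (0.555 to 0.814; exact binomial adjusted p = 0.000362). Uqcrc1 had 1512 and 524 reads against 585 and 136 of Uqcrc2, and the proteins they encode are known to be present in equal number in the complex.

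Of the 11 members of complex IV that were tested, 9 were called higher in replicate 2 and none lower. Cox4i1, one of the first nuclear subunits to join the catalytic core, had the highest level of the complex, at 2532 CPM in replicate 1 and 3830.3 in replicate 2, a ratio of 1.59 (1.49 to 1.69; exact binomial adjusted p = 8.79e-45). Only 1570 of its 2898 reads in replicate 1 and 594 of 1588 in replicate 2 spanned its coding sequence. The shorter annotated model Cox4i1-204, a retained intron, held 1267 and 954 reads. The ratio was not tested on coding-span reads alone. Cox8a, a membrane subunit with a single helix, followed with 1513 and 1889 CPM, a ratio of 1.31 (1.2 to 1.43; exact binomial adjusted p = 2.71e-08). Cox6a1, the non-muscle form of subunit VIa, had 1138 and 1635 CPM, a ratio of 1.51 (exact binomial adjusted p = 1.72e-15). Cox6c had 1037 and 1614 CPM, a ratio of 1.63 (exact binomial adjusted p = 6.42e-21). Cox6b1, which faces the intermembrane space, had 1030.1 and 1577 CPM, a ratio of 1.61 (exact binomial adjusted p = 2.76e-19). The lowest value among these 5 genes was that of Cox6b1 in replicate 1, and each of them was higher in replicate 2.

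The other tested members of complex IV were between 118 and 1295 CPM. Cox7a2 had 815 and 1295 CPM, a ratio of 1.67 (exact binomial adjusted p = 4.03e-18). Cox7c had 735 and 1126 CPM, a ratio of 1.61 (exact binomial adjusted p = 6.22e-14). Both are single-helix membrane subunits. Cox5b, a zinc-binding matrix subunit, had 749 and 946 CPM, a ratio of 1.33 (exact binomial adjusted p = 0.000119). Cox5a, on the matrix side, had 474 and 617 CPM, a ratio of 1.37 (exact binomial adjusted p = 0.000816). Cox7b at 638 and 671 CPM (ratio 1.1; exact binomial adjusted p = 0.416) and Cox7a2l at 118 and 125 CPM (ratio 1.12, 0.795 to 1.55; exact binomial adjusted p = 0.776) were not called. With full-length reads alone Cox7b was called higher (log2 ratio 0.81, exact binomial adjusted p = 2.31e-10). Cox7a2l, a paralog of Cox7a2 known for its role in joining complexes III and IV into supercomplexes, was the lowest of the tested members of the complex.

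Several complex IV subunits have tissue isoforms encoded by separate genes. The rule left out Cox6a2, Cox7a1 and Cox8b, so the members alone do not describe the families of Cox6a1, Cox7a2 and Cox8a. In the pairs of Cox4i1 with Cox4i2 and of Cox6b1 with Cox6b2, 1 gene held nearly all reads. Cox4i2, known from the lung, had 4 reads in replicate 1 and 1 in replicate 2 (3.49 and 2.41 CPM). There were 725 reads of Cox4i1 for each read of Cox4i2 in replicate 1 (95% counting interval 283 to 2661) and 1588 in replicate 2 (285 to 62762). Cox6b2, known from the testis, also had 4 reads and 1 read, against which Cox6b1 had 295 times (115 to 1084) and 654 times (117 to 25871) as many. Cox6c2, annotated as a processed pseudogene, had 1 read in replicate 1 and 0 in replicate 2. These 3 genes were under the minimum of 10 reads and entered no test. The testis isoforms Cox7b2 and Cox8c were at 0 reads in replicates 1 and 2, which leaves room for up to 2.62 CPM in replicate 1 and 7.24 CPM in replicate 2 (3 reads). Against that limit, Cox7b was at least 243-fold and 92.7-fold higher than Cox7b2, and Cox8a at least 577-fold and 261-fold higher than Cox8c. By contrast, Cox7a2 outnumbered its paralog Cox7a2l only by 6.91 (5.76 to 8.34) and 10.3 (7.76 to 14), a mean ratio of 8.62 ± 2.42 (SD, n = 2).

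The 3 isoforms left out by name were not silent in these libraries. Cox8b had 854 and 571 reads (746 and 1377 CPM), Cox7a1 had 319 and 254 reads (279 and 613 CPM), and Cox6a2 had 47 and 6 reads (41.1 and 14.5 CPM). Their paralogs among the members had 1732 and 783 reads (Cox8a), 933 and 537 (Cox7a2) and 1303 and 678 (Cox6a1). Cox7a1 and Cox8b belong to the brown fat marker list, and Cox6a2 to the skeletal muscle list. With these 3 genes added, complex IV would sum to 14594 ± 3876 CPM (SD, n = 2).

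Complex V held both the highest and the lowest tested members by mean CPM. Its catalytic head is built from Atp5a1 (subunit alpha), Atp5b (beta), Atp5c1 (gamma), Atp5d (delta) and Atp5e (epsilon). Atp5b, which carries the catalytic sites, had the highest mean CPM of the members, with 3560.3 CPM in replicate 1 and 3768 in replicate 2, where Cox4i1 stood above it, a ratio of 1.11 (1.05 to 1.18; exact binomial adjusted p = 0.00499). That call was lost without TMM scaling (log2 ratio 0.08, exact binomial adjusted p = 0.216) and with replicate 1 thinned to the depth of replicate 2 (log2 ratio 0.05), and with full-length reads alone the direction turned (log2 ratio -0.64). Atp5a1, its partner in the alternating ring, had 2555 and 1536 CPM and was called lower, at 0.632-fold (0.579 to 0.689; exact binomial adjusted p = 9.45e-26). Atp5e, the smallest subunit of the head, had 702 and 953 CPM, a ratio of 1.43 (exact binomial adjusted p = 4.83e-07). The rotor shaft Atp5c1 had 729.5 and 733 CPM (ratio 1.06; exact binomial adjusted p = 0.703). Atp5d had 648 and 569 CPM (ratio 0.923; exact binomial adjusted p = 0.587). The genes of the head therefore spread over 3 outcomes, with 2 higher, 1 lower and 2 not called.

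The peripheral stalk holds the head still while the rotor turns. Of its genes, Atp5h (subunit d) had 377 and 511 CPM, a ratio of 1.43 (exact binomial adjusted p = 0.000638), a call lost when replicate 1 was thinned to the depth of replicate 2 (exact binomial adjusted p = 0.0514). Atp5j (subunit F6, the coupling factor) had 670.1 and 924 CPM, a ratio of 1.45 (exact binomial adjusted p = 2.45e-07). With full-length reads alone the log2 ratio of Atp5j was -0.07 and its call was lost. Atp5o (the oligomycin sensitivity protein) had 521 and 596 CPM (ratio 1.2; exact binomial adjusted p = 0.0911), and Atp5f1 (subunit b) had 455 and 516 CPM (ratio 1.19; exact binomial adjusted p = 0.156). Atp5o was called higher with full-length reads alone (exact binomial adjusted p = 0.0241) and without Genomic reads (exact binomial adjusted p = 0.0114). Atp5o is annotated under 2 gene identifiers, whose reads were summed.

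Subunits e, f and g of the membrane part of complex V were each called higher in replicate 2. Atp5k (subunit e) had 655 and 1085 CPM, a ratio of 1.74 (exact binomial adjusted p = 1.93e-17). Atp5j2 (subunit f) had 668 and 1023 CPM, a ratio of 1.61 (exact binomial adjusted p = 1.41e-12). Atp5l (subunit g) had 561 and 864 CPM, a ratio of 1.62 (exact binomial adjusted p = 7.15e-11). These subunits are known to sit where 2 ATP synthases meet. Atp5mpl, a small proteolipid found with the complex, had 203 and 425 CPM, a ratio of 2.2 (1.8 to 2.69; exact binomial adjusted p = 1.31e-12). Atp5s, a factor of the complex rather than a standing subunit, was the lowest tested member, with 6 and 15 reads (5.24 and 36.2 CPM), a ratio of 7.25 (2.66 to 22.8; exact binomial adjusted p = 0.000281).

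The c subunit, whose ring turns in the membrane, is encoded by Atp5g1, Atp5g2 and Atp5g3, which are known to give the same mature protein after different import signals. Atp5g3 had 765 and 798 CPM (ratio 1.1; exact binomial adjusted p = 0.409; called higher with full-length reads alone, adjusted p = 0.0241), and Atp5g1 had 369 and 412 CPM (ratio 1.18; exact binomial adjusted p = 0.273). Atp5g2 had 156 and 359 CPM, a ratio of 2.43 (exact binomial adjusted p = 6.44e-13). Over the last 225 coding bases, which hold the mature protein, Atp5g1 and Atp5g2 were 84.9% identical, Atp5g1 and Atp5g3 80%, and Atp5g2 and Atp5g3 78.7%, with 0 changed residues in any pair. The last 90 coding bases before the stop are shown because they let a read be told apart by gene, from the GENCODE M21 transcripts on GRCm38, with the 24 positions that differ between the genes in capitals.
Atp5g1-202: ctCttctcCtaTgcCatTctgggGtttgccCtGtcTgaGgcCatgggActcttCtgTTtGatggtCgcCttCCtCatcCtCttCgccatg
Atp5g2-202: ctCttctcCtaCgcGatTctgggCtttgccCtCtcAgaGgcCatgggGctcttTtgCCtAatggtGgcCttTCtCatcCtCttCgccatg
Atp5g3-201: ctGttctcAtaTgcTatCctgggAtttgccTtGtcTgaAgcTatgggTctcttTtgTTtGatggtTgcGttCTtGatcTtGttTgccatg

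Of all reads of the 3 c subunit genes, Atp5g3 held 59.3% (95% Wilson interval 56.8 to 61.8) in replicate 1 and 50.8% (47 to 54.7) in replicate 2. Atp5g1 held 28.6% and 26.3%, and Atp5g2 12.1% and 22.9%. The larger share of Atp5g2 in replicate 2 came with 1 model. As deposited, that model has 1 exon of 151 bases at chr15:102662864-102663014 (mm10, minus strand), within the last exon of the gene. It holds 78 of 178 Atp5g2 reads in replicate 1 and 104 of 149 in replicate 2 (43.8% and 69.8%). Both limits of this exon are annotated transcript ends, of Atp5g2-202 and of Atp5g2-201, so the deposited span need not be the extent of the reads. The model is of the class Genomic, for reads that overlap a gene without following its exon structure. Without Genomic reads Atp5g2 held 7.16% and 8.23%, Atp5g1 30.1% and 31.3%, and Atp5g3 62.7% and 60.5%, and the difference of Atp5g2 between the libraries was no longer called (log2 ratio 0.45, exact binomial adjusted p = 0.267). The order Atp5g3, Atp5g1, Atp5g2 held in both libraries for all reads, for full-length reads and without Genomic reads, though over all reads of replicate 2 the intervals of Atp5g1 (23 to 29.8) and Atp5g2 (19.8 to 26.3) overlap.

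**Figure D2:**
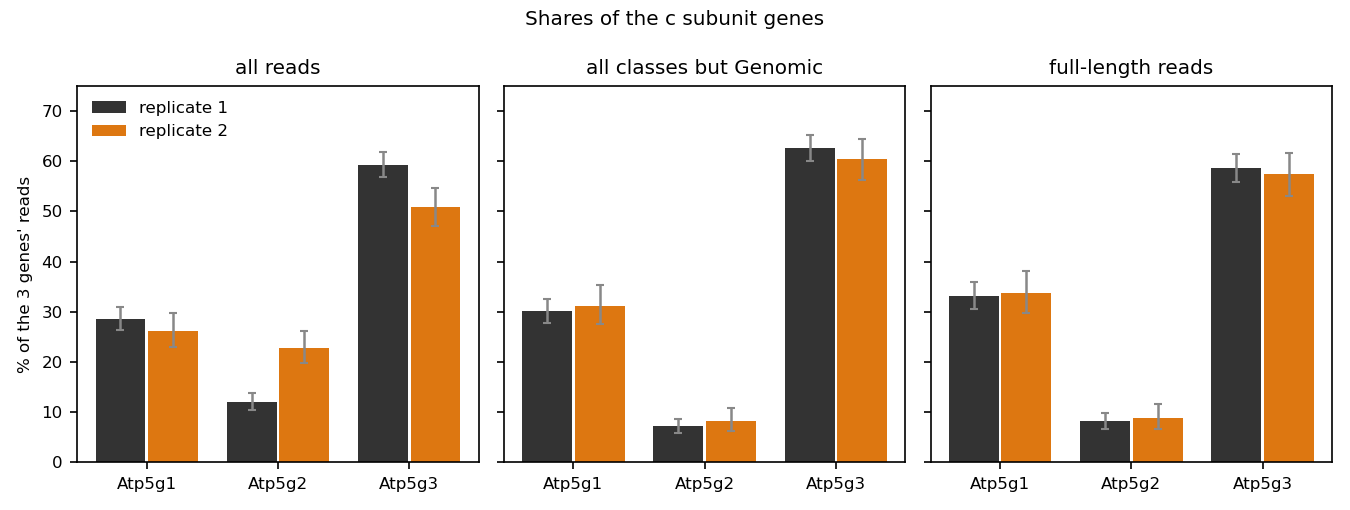
Share of Atp5g1, Atp5g2 and Atp5g3 among the reads of the 3 c subunit genes (percent, with 95% Wilson intervals) in replicates 1 and 2, for all reads, for all classes but Genomic and for full-length reads. Atp5g2 stands at 12.1% and 22.9% of all reads but at 8.18% and 8.76% of full-length reads.

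Differences between the libraries were ordered by transcript length. Length was taken as that of the annotated model with most reads. All 5 members under 0.5 kb were called higher in replicate 2, with a median log2 ratio of 0.80. Of the 20 members from 0.5 to 1 kb, 16 were called higher and none lower (median 0.62). Of the 12 from 1 to 2 kb, 3 were called higher and 1 lower (median 0.11), and of the 4 of 2 kb or more, none was called higher and 2 lower (median -0.20). Among these 4 is Atp5f1, whose length of 2527 bases comes from an annotated model with 1 read. The other genes tested had medians of 0.43, 0.33, -0.04 and -0.08 in the same classes, with 26.5%, 18.7%, 6.58% and 5.72% called higher. Across the 41 members, Pearson's r between log2 length and log2 ratio was -0.43 and Spearman's rho -0.61, as a description over genes read in the same libraries. Across the 9293 other genes with a length the values were -0.08 and -0.07. With the expected ratio set within each length class from the genes outside the members, an alternative chosen after seeing the data, 24 members were called, 20 higher and 4 lower, and their median log2 ratio was 0.21. Under it the calls of Uqcrh, Cox5a, Cox5b, Cox8a, Atp5e, Atp5h and Atp5j were lost, and Sdhc, Uqcrfs1, Atp5d and Atp5f1 were called. What part length has in these differences was not tested further.

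**Figure D3:**
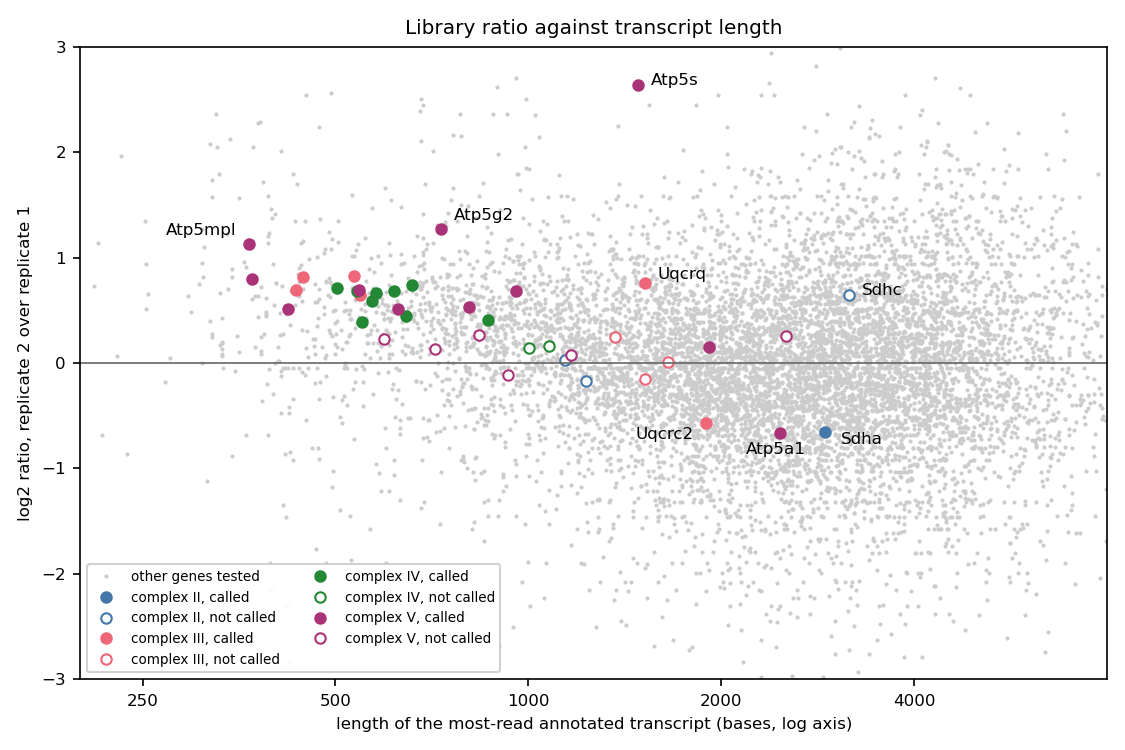
Log2 ratio of replicate 2 to replicate 1 against transcript length in bases (log axis) for the tested members, coloured by complex, over the other genes tested in grey, of which 275 lie outside the axes. Filled points were called. Members under 1 kb lie mostly above 0, and Sdha and Atp5a1, the longest members called, lie below.

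Other gene lists were counted in the same way, beside the 7.86% called higher and 6.13% called lower of all genes tested. Of the 38 nuclear complex I subunits, all tested, 26 were called higher and 2 lower, and their median log2 ratio was 0.48. The mitochondrial ribosomal proteins had 12 higher and 1 lower of 79 tested (16.5% called, median 0.32), and the cytosolic ribosomal proteins 24 higher and 6 lower of 90 (median 0.19). Partner subunits from the mitochondrial genome, mt-Cytb of complex III, mt-Co1 to mt-Co3 of complex IV and mt-Atp6 of complex V, were all called higher, and their sum was 445.6 CPM in replicate 1 and 2800.4 in replicate 2, while mt-Atp8 had 0 reads. Summed over 5 genes, these transcripts stood below the sum of the 44 nuclear members (34548 and 42172 CPM) in both libraries. By gene, mt-Cytb and mt-Co1 were below the median tested member in replicate 1 (668 CPM) and above it in replicate 2 (842 CPM). The mt-Cytb level was 98.7 and 1011 CPM and that of mt-Co1 was 234 and 1223 CPM.

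Assembly factors, which insert cofactors and guide subunits without staying in the complex, were listed together with cytochrome c for all 4 complexes. The 41 genes summed to 4989 ± 896 CPM (SD, n = 2), with 39 tested, 8 called higher, none lower and a median log2 ratio of 0.31. The highest was Cox14, which aids the synthesis of mt-Co1, at 493 and 658 CPM (exact binomial adjusted p = 0.000132). Cycs, the somatic cytochrome c that carries electrons from complex III to IV, had 451 and 615 CPM (exact binomial adjusted p = 9.73e-05). Cox17, the copper chaperone, had 431 and 615 CPM (exact binomial adjusted p = 8.18e-06). Tmem70, which acts in complex V assembly, had 274 and 323 CPM and was not called (exact binomial adjusted p = 0.171). The other genes called higher were Sdhaf4, which protects newly made Sdha, at 121 and 222 CPM, Uqcc2, which aids the synthesis of cytochrome b, at 192 and 260.5 CPM, Cox20 at 139 and 203 CPM and Pet100 at 65.5 and 147 CPM of complex IV, and Fmc1 of complex V at 73.4 and 145 CPM.

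Each read was assigned to a transcript model of 1 class. Known models follow an annotated transcript. NIC models combine annotated splice sites in an unannotated way, and NNC models use at least 1 unannotated splice site. ISM models, for incomplete splice match, follow part of an annotated transcript, as a suffix where they lack its start. Known, NIC and NNC reads together are called full-length here. Of the members' reads, 85.7% and 83.1% were Known, 0.362% and 0.297% NIC, 1.07% and 0.898% NNC, 11.7% and 14% ISM, and 1.25% and 1.69% Genomic. Full-length reads made up 87.1% and 84.3% of the members' reads, and 81.9% and 75.7% of the reads of all annotated genes. By complex the share was 88.8% and 84.6% in complex II, 83% and 83.5% in complex III, 94.2% and 96.3% in complex IV and 83.4% and 72.5% in complex V. Complex V thus had the widest gap between the libraries.

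The full-length share was tested gene by gene (Fisher's exact test, two-sided) over genes with at least 20 reads in each library. Of 40 members tested, 16 were called, 7 with a higher share and 9 with a lower share in replicate 2. Of all 3695 genes tested 14.4% were called, 3.68% higher and 10.7% lower. The median share over members was 92.3% in replicate 1 and 93.2% in replicate 2, and over all genes tested 89% and 86.9%.

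The largest lower share was that of Atp5b (chr10:128083273-128090391, plus strand, mm10), which had 3405 full-length of 4075 reads in replicate 1 (83.6%, Wilson interval 82.4 to 84.7) and 723 of 1562 in replicate 2 (46.3%, 43.8 to 48.8; Fisher's exact test, adjusted p = 7.63e-162). A single ISM suffix model of 2 exons, which ends the gene, held 481 reads (11.8%) and 727 reads (46.5%). Atp5g2 went from 53.9% to 28.9% (Fisher's exact test, adjusted p = 0.000141), with the Genomic model described above. Atp5j had 38.3% and 24.3% (Fisher's exact test, adjusted p = 4.47e-05), and among its ISM models 1 of 4 exons held 451 and 253 reads. The other 6 genes with a lower share stayed above 80% in both libraries. Sdhd had 92.4% and 82% (Fisher's exact test, adjusted p = 0.00939), and Sdha had 91.7% and 81.3% (Fisher's exact test, adjusted p = 3.35e-06). Uqcrfs1 had 97.7% and 88.7% (Fisher's exact test, adjusted p = 1.09e-06), where a Genomic model in its last exon held 32 reads in replicate 2. With Genomic reads left out, the share of Uqcrfs1 was 2.31 points higher in replicate 2. Atp5d had 93.3% and 85.6% (Fisher's exact test, adjusted p = 0.00572), Atp5c1 had 89.5% and 82.6% (Fisher's exact test, adjusted p = 0.025), and Atp5a1 had 94.1% and 88.7% (Fisher's exact test, adjusted p = 0.000127).

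In the genes with a higher full-length share in replicate 2, the other reads lay in few models. Cox7b had 436 full-length of 730 reads in replicate 1 (59.7%, 56.1 to 63.2) and 254 of 278 in replicate 2 (91.4%, 87.5 to 94.1; Fisher's exact test, adjusted p = 5.95e-23). An ISM model of 1 exon and 213 bases at the start of its last exon held 294 reads in replicate 1 and 24 in replicate 2. Atp5k had 81.5% and 99.6% (Fisher's exact test, adjusted p = 1.15e-25), with a suffix of 2 exons at 135 and 2 reads. Uqcr10 had 84.9% and 97.5% (Fisher's exact test, adjusted p = 5.71e-15), with 150 Genomic reads in replicate 1 and 14 in replicate 2. Uqcrq had 51.7% and 59.9% (Fisher's exact test, adjusted p = 0.000121). An ISM model made of the last exon of Uqcrq-203, of 198 bases, held 1011 reads (48.1%) and 491 reads (40.1%). The leading annotated model, Uqcrq-201, runs further downstream, to chr11:53427922 (mm10, minus strand). Sdhb had 85.8% and 92.9% (Fisher's exact test, adjusted p = 0.00297), and a model of its last exon held 116 and 2 reads. Cox6b1 had 88.5% and 95.3% (Fisher's exact test, adjusted p = 1.85e-05), and Atp5j2 had 90.7% and 96% (Fisher's exact test, adjusted p = 0.00803). Without Genomic reads the calls of Uqcr10, Sdha and Atp5g2 were lost, and with Known reads alone those of Atp5c1 and Atp5d. With nested annotated models not counted as full-length, a setting chosen after seeing the data, the calls of Uqcrq and Atp5d were lost and Cox4i1 was called.

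The class of a read did not always say whether it held the whole coding sequence. A measure chosen after the values were seen counts the reads whose model spans the coding sequence of the coding transcript with most reads, with its introns. Such reads made up 84.5% and 79.9% of the tested members' reads, with 1072 of 4610 ISM reads and 525 of 2454 among them. The widest gap was in Atp5f1, subunit b of the peripheral stalk, which had 14 full-length of 521 reads in replicate 1 (2.69%) and 1 of 214 in replicate 2 (0.467%), while 93.1% and 87.9% of its reads spanned the coding sequence. For Atp5j the full-length share was 38.3% and 24.3% and the spanning share 92% and 98.4%. Cox4i1 went the other way, with 98.1% and 97.1% full-length and 54.2% and 37.4% spanning. Atp5b had 82.6% and 45.5% spanning, close to its full-length share.

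**Figure D4:**
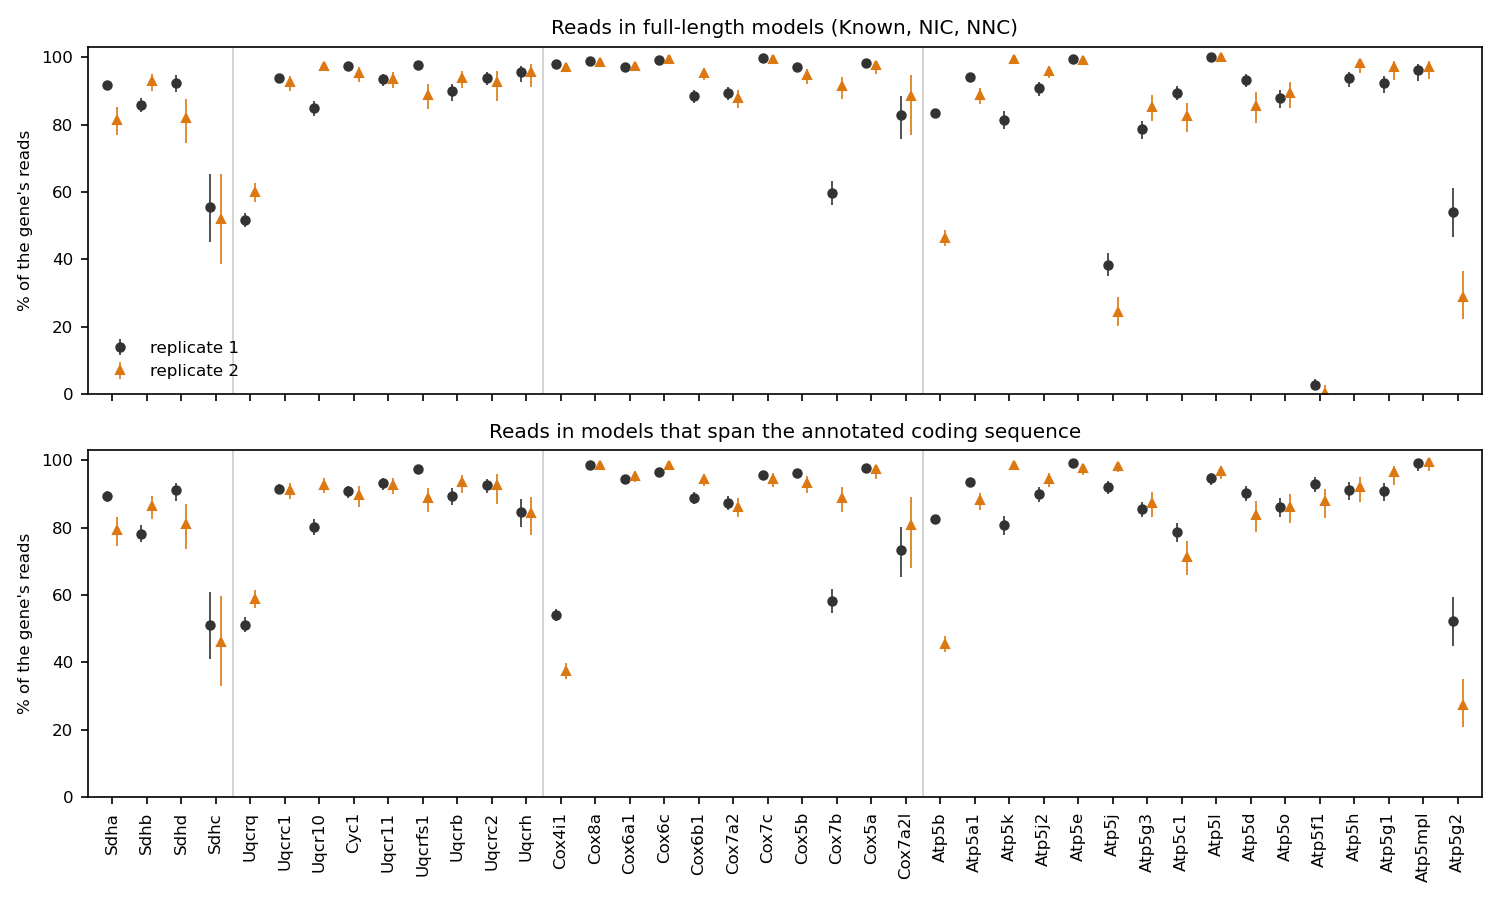
Full-length share (top) and coding-span share (bottom) of the reads of each member with at least 20 reads in each library, in percent with 95% Wilson intervals, in replicate 1 (circles) and replicate 2 (triangles), with lines between complexes. Atp5b drops from 83.6% to 46.3% at the top, Cox7b goes from 59.7% to 91.4%, and Atp5f1 lies near 0 at the top but at 93.1% and 87.9% at the bottom.

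In Atp5f1 the main read model began downstream of the start of the annotated transcript Atp5f1-201. That transcript begins at chr3:105960099 on the minus strand, 836 bases from the start that RefSeq gives for this gene at 105959263. The ISM model of 7 exons began at 105959246 in replicate 1 and at 105959264 in replicate 2, which is 17 bases and 1 base from the RefSeq start, and held 485 and 188 reads. Another annotated transcript, Atp5f1-205, also begins at 105959264. Several models of the gene share 105959246 or 105959264 exactly, so these may be shared model ends and not measured read starts. The coding sequence begins at 105959187, downstream of all of these. The first annotated intron was spliced in 0 reads of either library and the second in 493 and 189. The 30 bases around these starts are shown from RefSeq on GRCm38 (chr3:105959245-105959274, minus strand), with capitals from the start of the replicate 2 model onward.
Atp5f1 start region: tgcgagcggcCATCTTGCTCCTGCCCCTGA

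Isoform use among full-length reads was tested for 39 members with at least 20 such reads in each library and at least 2 models, with the leading model set against the rest (Fisher's exact test, two-sided). It called 1 member, against 1.14% of the 2799 genes tested. In 28 of the 39 the leading model held over 90% of full-length reads in both libraries. The called member was Cox4i1 (chr8:120668222-120674207, plus strand, mm10). Its model Cox4i1-204, annotated as a retained intron with 3 exons, had 1267 and 954 reads, or 44.6% and 61.9% of full-length reads (Fisher's exact test, adjusted p = 9.61e-25). The coding model Cox4i1-201, with 5 exons, had 1504 and 560 reads, or 52.9% and 36.3%. The introns of Cox4i1-204 are all introns of Cox4i1-201. Annotated models of this kind, whose introns form a run within a longer annotated chain, numbered 32 in 25 members and held 8.25% and 11.5% of member reads, and they count as Known.

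In the other 7 members with a leading model under 90% and 50 or more full-length reads per library, the share of that model was not called as different between the libraries. Atp5g1-202 held 63% and 61.4% of the full-length reads of Atp5g1, and Atp5g1-201 34.2% and 35.5%. The 2 differ in the first exon, before the part that codes the mature protein, and in their ends. Atp5g3-201 held 68.6% and 67.4% and Atp5g3-202 28.3% and 29.1%, which differ in the donor site of the first intron. Cox6c-201 held 89.2% and 88.7% with Cox6c-203 at 7.91% and 10.2%, and Uqcrh-202 held 88.7% and 88.2% with Uqcrh-205 at 4.26% and 3.29%. Atp5h-201 held 92.1% and 84.1%, with the shorter Atp5h-208 at 2.72% and 7.21% (Fisher's exact test for the leading model, adjusted p = 0.194). Atp5j was spread most widely, with Atp5j-201 at 34.7% and 39.8%. Its retained intron model Atp5j-207 held 54 and 2 reads (18.4% and 2.15%), a difference that was not tested by itself.

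Atp5c1, the rotor shaft of the ATP synthase, had a pair of coding isoforms that differ in an exon of 37 bases at chr2:10056770-10056806 (mm10, minus strand). Of reads that cover this place, 735 of 823 (89.3%, Wilson interval 87 to 91.2) held the exon in replicate 1 and 253 of 299 (84.6%, 80.1 to 88.3) in replicate 2. Atp5c1-203, which holds it, had 87.8% and 86.1% of full-length reads, and Atp5c1-201, which skips it, had 10% and 12.4%. The end of the coding sequence is shown for both, from the GENCODE M21 transcripts, because the exon changes the stop that is used. Capitals mark the coding bases after the shared exon, the stop codon included.
Atp5c1 with the exon: catctctggggctgctgctctGGATTAA
Atp5c1 without the exon: catctctggggctgctgctctGTAA

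Sdhb, the iron-sulfur subunit of complex II, had the unannotated model with most reads among the members. It is an NNC model of 8 exons with 67 and 19 reads that joins the annotated donor of exon 1 to an acceptor 6 bases downstream of the annotated one. Over all models, this acceptor was used in 69 of 897 reads of the junction in replicate 1 (7.69%, Wilson interval 6.12 to 9.62) and 19 of 341 in replicate 2 (5.57%, 3.6 to 8.54), and these intervals overlap. A codon starts at the annotated acceptor, so the missing 6 bases are in frame. The coding bases around the junction are shown from the annotated transcript on the plus strand, with the 6 bases at chr4:140966495-140966500 in capitals.
Sdhb annotated: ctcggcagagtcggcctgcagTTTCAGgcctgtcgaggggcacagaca
Sdhb downstream acceptor: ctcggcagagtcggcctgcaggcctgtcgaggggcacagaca

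Atp5j had more unannotated models found in both libraries than any other member. An acceptor 5 bases downstream of the annotated one was used in 46 of 644 reads (7.14%, 5.4 to 9.4) and 24 of 332 reads (7.23%, 4.91 to 10.5). A donor 47 bases upstream in the first intron was used in 45 of 170 reads (26.5%, 20.4 to 33.6) and 21 of 70 reads (30%, 20.5 to 41.5). The libraries gave these shares within their counting intervals. In all, 324 NIC or NNC models were found in members, and 219 of them had 1 read. Only 63 of them, in 25 genes, were found in both libraries by intron chain, 10 of these in Atp5j and 5 in Atp5g3. Those with at least 5 reads in a library numbered 23 in 15 genes, of which 21 were in both. After Sdhb and Atp5j the largest were 1 model each of Atp5b (12 and 1 reads), Atp5d (10 and 3) and Uqcrh (9 and 4), and the rest belonged to Atp5g3, Cox7a2, Cyc1, Sdha, Cox4i1, Cox6b1, Uqcrq, Uqcrc1, Atp5f1 and Sdhd with at most 8 reads in a library. The deposited tables gave 8 intron chains a different class in each library, 1 of them an Atp5j chain that was NNC with 32 reads in replicate 1 and ISM with 20 in replicate 2.

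Nuclear respiratory genes are known for promoters with sites of NRF1, of ETS family factors such as GABP, of YY1 and of the ERR receptors. Windows from 250 bases before to 50 after the RefSeq start on GRCm38 were found for 33 of the 44 members and for 27025 genes in all, and searched on both strands. The NRF1 motif (GCGC, any base, then TGCGC) was in 10 member windows (30.3%) and in 5.19% of all. The ETS motif CCGGAAG was in 12 (36.4%) and in 9.93% of all. The YY1 motif AANATGGCG was in 3 (9.09%) and in 2.76%, and the ERR motif TNAAGGTCA in 2 (6.06%) and in 1.43%. The general elements CCAAT (18 windows, 54.5%, against 41.1%) and the GC box GGGCGG (13 windows, 39.4%, against 38.2%) were closer to the share of all genes. No motif contains another, and these matches are letters in a window, with no measurement of binding.

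The NRF1 motif was spread over all 4 complexes, in Sdha and Sdhd of complex II, Uqcrc1 of complex III, Cox6a1 of complex IV, and Atp5c1, Atp5g2, Atp5g3, Atp5h, Atp5k and Atp5o of complex V. The ETS motif was in Sdhb and Sdhd, Uqcr11 and Uqcrh, Cox6a1, Cox6b1 and Cox8a, and Atp5e, Atp5h, Atp5j, Atp5k and Atp5l. In 18 windows at least 1 of the pair was found, in 4 both (Sdhd, Cox6a1, Atp5h and Atp5k) and in 15 neither. Sdha had 3 NRF1 matches, and Cox6a1 and Uqcrc1 had more than 1. The windows of these 3 genes are shown with 10 bases on each side, on the strand of the gene, with the match in capitals, which reads as the motif on one strand or the other. Those of Sdha lie at chr13:74350231-74350260, chr13:74350276-74350305 and chr13:74350319-74350348 (minus strand), those of Uqcrc1 at chr9:108936643-108936672 and chr9:108936668-108936697 (plus strand), and those of Cox6a1 at chr5:115349056-115349085 and chr5:115349101-115349130 (minus strand), in the order given.
Sdha: gcgactcggtGCGCAAGCGCagtctgtcgc
Sdha: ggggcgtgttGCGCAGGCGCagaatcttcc
Sdha: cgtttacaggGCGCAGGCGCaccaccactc
Uqcrc1: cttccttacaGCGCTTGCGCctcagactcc
Uqcrc1: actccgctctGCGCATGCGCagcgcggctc
Cox6a1: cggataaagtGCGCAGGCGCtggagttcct
Cox6a1: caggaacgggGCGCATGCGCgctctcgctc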

How the data were processed

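Long-read RNA-seq of adrenal gland gave 1 table of read counts per transcript model and 1 annotation per library. The authors deposited whole-read counts with no normalization, aligned to mm10 and compared with GENCODE M21 by TALON, each library on its own, per the file headers and accompanying notes. Exon numbers, lengths in bp and coordinates are as the authors deposited them. Aligner and tool versions: not given in the sources used here. Members and lists were chosen with earlier results of these data known.

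Reads were summed per annotated gene name, without spike-ins (2.12% and 3.65% of all reads). The quasi-likelihood test has no residual degrees of freedom with single libraries, so a two-sided exact binomial test was used on TMM factors (edgeR 4.0.16), with Benjamini-Hochberg adjustment. Log2 ratios are on the log2(CPM + 1) scale, with TMM-scaled library sizes. Ratios between the libraries use the same scaled sizes, and the CPM values given do not. DESeq2 1.42.0 size factors, other read classes, minimums of 1 and 50 reads, thinning and pseudogene reads were alternatives. Scripts used Python 3.11.15, scipy 1.17.1 and R 4.3.3, and were tested on simulated data. Models were matched by transcript identifier or intron chain. Intervals (95%, Wilson for shares) and the floor of 3 reads cover counting error only.

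Values in both libraries are given for every member with at least 10 reads, and full statistics for members called in a test and for the 3 highest and 3 lowest of each complex. Isoforms are named where the leading one holds under 90% in either library and both have 50 or more full-length reads. Unannotated models in both libraries or with at least 5 reads in one are named by gene, the smaller ones as counts. Of the assembly factors the 4 highest and every called gene are named.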

Additional observations from a re-analysis of the deposited data

How the results depend on the processing

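Over 9 alternative settings, 24 to 28 members were called, and 23 were called in the same direction in every planned setting that tested them. With full-length models alone the log2 ratio was -0.64 for Atp5b and -0.067 for Atp5j. In place of sums, median members of complexes II, III, IV and V stood at 603, 730, 938 and 691 CPM (complex IV over its members read in both libraries, without Cox6c2). The mean share of Atp5g1 among c subunit reads was 33.5% with full-length reads and 30.7% without Genomic reads, that of Atp5g2 8.47% and 7.69%, and that of Atp5g3 61.6% without Genomic reads. The pooled full-length share, 85.7% as a mean of both libraries, was 75.8% when annotated models nested in a longer chain were not counted, a setting chosen after seeing the data. Leaving Genomic reads out turned the difference of Uqcrfs1 to 2.31 points. With ISM models counted, leading isoforms were called for 11 members in place of 1, and the differences of Cox6b1, Cox7b and Sdhd turned to 5.74, 30.6 and -9.83 points. Other than the construction of each setting, the cause was not tested. Replicate 2 has fewer reads, so a gene at 0 there may reach 7.24 CPM. No paired analysis was possible because both libraries belong to 1 group.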
